A study of Mus musculus with 16 samples.

Results

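The genes described here mark the mural cells of brain vessels, the pericytes of capillaries and the smooth muscle cells of arteries and arterioles. They are Pdgfrb, Notch3, Rgs5, Abcc9, Anpep, Vtn, Acta2, Myh11 and Tagln, and they were found by symbol in a table of read counts for 19457 mouse genes. All 9 were in the table, and all 9 passed the filter on low counts that left 18813 genes for testing.

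RNA of the striatum was sequenced from GS mice, taken to carry the LRRK2 G2019S kinase change because the series title names it, and from wild-type (WT) mice. Each genotype was sampled intact and at 6 h, 3 d and 15 d after an injury made by injecting 0.8 µl of 500 mM ATP into the striatum of a single hemisphere. The 8 groups had 2 libraries each, which the labels call biological replicates, so there were 16 libraries. The 8 groups hold no animals injected with fluid alone, so effects of ATP, of the needle and of the injected fluid cannot be told apart. Neither the making of the GS allele nor the age of the mice is stated in the labels.

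Mural cells sit within the basement membrane of the vessel wall, pericytes on capillaries and smooth muscle cells in rings around arteries and arterioles. Endothelial cells recruit them by secreting PDGF-B, which signals through PDGF receptor beta, and Notch3 and angiopoietin signals help to keep them in place. Pericytes are known for supporting the blood-brain barrier, and smooth muscle cells set the width of the vessel through a contractile apparatus of actin and myosin that serum response factor and its partner myocardin switch on.

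The libraries held 49220578 to 63948110 counts each. Levels below are CPM, counts scaled to the library size after TMM normalisation, a log2 fold change is given ± its standard error, and a gene was said to pass at an adjusted p under 0.05 (edgeR quasi-likelihood test, Benjamini-Hochberg adjustment over all 18813 genes). A list of 12 striatal neuron markers summed to 6451 to 11030 CPM over the libraries, with lower sums at 15 d than in intact striatum. The sum was 9672 to 11030 CPM in GS and 8374 to 9112 CPM in WT intact striatum. At 15 d it was 6524 to 6655 CPM in GS and 6451 to 7063 CPM in WT. Against intact striatum, as the mean of both genotypes, 7 of the 12 were lower and 1 higher at 3 d. At 15 d 11 were lower and 1 higher. The part of this shift in the CPM of the mural genes was not tested. The mean log2 CPM of cortical markers was highest in 3 WT libraries, at 3.84 in intact replicate 1, 3.16 in 6 h replicate 2 and 2.83 in 15 d replicate 1, and lay at 2.48 or lower in the other libraries, and results are given with and without those 3. This level was 2.19 or higher in all intact libraries and 1.92 or lower in all 3 d libraries. Fits that use it as a covariate therefore cannot tell dissection from injury between these stages, and may remove part of the injury change. The fit without the 3 WT libraries leaves 1 library each in WT intact, 6 h and 15 d striatum. In WT at 6 h it also ended the calls of erythrocyte genes, so a call lost in that fit does not tie a gene to cortical tissue. RNA from whole tissue cannot tell fewer mural cells from less of a gene's RNA in each cell.

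Per kilobase of exon, which allows genes to be compared, Vtn had the highest median over the 16 libraries (17.9 CPM per kb, range 12.02 to 20.8), before Rgs5 (11.4, range 7.63 to 21.0) and Pdgfrb (4.47, range 3.51 to 5.03). Notch3 followed at a median of 2.28 CPM per kb (range 1.58 to 3.17) and Abcc9 at 1.90 (range 1.55 to 2.23). Acta2 had a median of 1.35 (range 0.528 to 2.51), Tagln 0.978 (range 0.499 to 3.60), Anpep 0.551 (range 0.234 to 1.76) and Myh11 0.385 (range 0.253 to 0.528). Of neighbours in this order, Pdgfrb stood clear of Notch3, and Rgs5 stood clear of Pdgfrb, in all libraries. The other neighbours overlapped: in GS at 3 d Rgs5 averaged 17.7 ± 4.73 and Vtn 17.6 ± 0.259 CPM per kb (SD, n = 2). The contractile genes were thus among the lowest of the 9 in this tissue, with 67 to 347 counts per library for Acta2, 58 to 465 for Tagln and 112 to 250 for Myh11, against 1369 to 2557 for Vtn.

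The spread between replicates set how small a change could be called. The biological coefficient of variation was 6.53% for Vtn, 7.31% for Pdgfrb and 7.44% for Abcc9, then 10.4% for Rgs5 and 11.9% for Notch3. It was 18.5% for Myh11, 19.5% for Acta2, 25.7% for Anpep and 33.7% for Tagln, against 10.1% as the common value over all genes. Equal fold changes were therefore easier to call in the abundant pericyte genes than in Tagln or Anpep.

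The stretches around the start sites of Acta2 and Vtn are shown because Acta2 alone of the 9 rose in both genotypes at 3 d and at 15 d, and Vtn fell at 6 h with the smallest error of the 9. Promoters, from 250 bases before to 50 after the RefSeq start site, were found for 6 of the 9 genes in RefSeq sequences of GRCm38.p6 (mm10), and Pdgfrb, Myh11 and Tagln are named only. Capitals mark the 2 motifs searched on both strands. The first, called CArG-like here, is CC, any 6 bases of which at most 1 is G or C, and GG, after the element bound by serum response factor. The second is TGGGAA or its complement TTCCCA, the core of the element bound by RBPJ, the DNA-binding partner of Notch. The sequences are written 5′ to 3′ on the strand of each gene.
Acta2, chr19:34255324-34255623, minus strand: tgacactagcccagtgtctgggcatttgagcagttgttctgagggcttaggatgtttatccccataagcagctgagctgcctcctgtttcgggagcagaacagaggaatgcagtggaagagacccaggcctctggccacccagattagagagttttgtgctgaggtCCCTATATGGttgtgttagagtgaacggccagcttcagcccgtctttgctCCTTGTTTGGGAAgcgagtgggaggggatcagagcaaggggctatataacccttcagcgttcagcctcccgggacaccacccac
Vtn, chr11:78498870-78499169, plus strand: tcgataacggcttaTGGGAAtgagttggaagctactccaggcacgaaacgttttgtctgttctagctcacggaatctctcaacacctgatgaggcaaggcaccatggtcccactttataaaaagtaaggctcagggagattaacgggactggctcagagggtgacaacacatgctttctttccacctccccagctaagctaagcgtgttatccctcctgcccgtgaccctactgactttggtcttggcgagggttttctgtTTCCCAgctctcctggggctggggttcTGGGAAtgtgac

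Acta2 had CArG-like matches at bases -84 to -75 and -34 to -25 relative to the start site of its window, each with 1 G or C among the inner bases. It also had an RBPJ core at -27 to -22 that overlaps the second of them. Vtn had RBPJ cores at -236 to -231, 12 to 17 and 39 to 44, and Abcc9 had an RBPJ core at -221 to -216. The start site used for Acta2 lies inside the gene, whose RefSeq span ends at base 34255585, within the upstream part of the window. The Abcc9 window lies wholly inside its gene span, and the start site used for Notch3 lies just inside its own. Positions in these genes are thus relative to a start site that is not the outermost one. Neither motif was in the windows of Rgs5, Notch3 and Anpep. Of 32851 promoters of the same length, 9.98% held a CArG-like match and 25.6% an RBPJ core, so these letters are common, and a match describes the sequence without showing that a factor binds there.

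The changes after injury differed by stage, and at 3 d and 15 d the number of calls in either direction was near the share over all genes. At 6 h Vtn, Rgs5, Abcc9 and Pdgfrb fell, by 0.24 to 0.55 on the log2 scale as the mean of both genotypes. Anpep (-0.83), Acta2 (-0.56) and Notch3 (-0.32) had lower values as well that did not pass. By 3 d Rgs5, Anpep, Acta2 and Tagln were above the intact level, Vtn and Abcc9 did not differ from it beyond their error, and Pdgfrb was still lower. At 15 d Acta2, Anpep and Notch3 were higher than in intact striatum and Abcc9 was lower. None of the 9 genes passed between GS and WT by edgeR. The means of both genotypes were added as comparisons after the data had been seen, and the injury comparisons share the intact libraries.

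Pdgfrb encodes the receptor for PDGF-B on mural cells (gene at chr18:61045127-61085067 in mm10, plus strand). GS libraries held 27.5 and 25.02 CPM intact, 20.4 and 21.8 at 6 h, 20.9 and 24.0 at 3 d, then 24.996 and 26.1 at 15 d. WT libraries held 26.7 and 25.4 CPM intact, 23.5 and 23.2 at 6 h, 19.2 and 23.2 at 3 d, then 25.03 and 26.8 at 15 d. All 4 libraries at 6 h and all 4 at 3 d lay below all 4 intact libraries. Those of 15 d lay between 24.996 and 26.8 CPM, beside 25.02 to 27.5 CPM in intact striatum. As the mean of both genotypes Pdgfrb fell by 0.24 ± 0.070 at 6 h (adjusted p = 0.0271, edgeR) and by 0.26 ± 0.070 at 3 d (adjusted p = 0.00722, edgeR), and the difference at 15 d was -0.024 ± 0.070 (adjusted p = 0.799, edgeR). The fall at 6 h was lost in 6 of 24 alternative settings, 5 of them with a library of the intact or 6 h groups left out, and that at 3 d with the cortical marker level as a covariate (adjusted p = 0.0607, edgeR).

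Notch3 encodes the Notch receptor of smooth muscle cells and pericytes (chr17:32120820-32166896, minus strand). GS libraries held 19.1 and 15.7 CPM intact, 12.8 and 13.6 at 6 h, 21.5 and 21.3 at 3 d, then 24.8 and 25.7 at 15 d. WT libraries held 20.0 and 16.5 CPM intact, 15.0 and 15.6 at 6 h, 16.5 and 23.4 at 3 d, then 17.8 and 24.8 at 15 d. All 4 libraries at 6 h were below all 4 intact libraries, and at 15 d both GS libraries and WT replicate 2 were above them. Notch3 rose at 15 d by 0.38 ± 0.12 as the mean of both genotypes (adjusted p = 0.0172, edgeR), after values of -0.32 ± 0.12 at 6 h (adjusted p = 0.0689, edgeR) and 0.21 ± 0.12 at 3 d (adjusted p = 0.158, edgeR) that did not pass. Its 15 d call ended when any of 3 libraries was left out (WT intact replicate 2, GS intact replicate 2 or WT 15 d replicate 2), with an adjusted p of up to 0.102 (edgeR), and with the cortical covariate. The antisense gene Gm17276 overlaps Notch3, and the use of strand in counting is not given.

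Rgs5 encodes a regulator of G protein signalling that is a standard pericyte marker (chr1:169655501-169695813, plus strand). GS libraries held 53.4 and 57.0 CPM intact, 34.8 and 36.6 at 6 h, 65.1 and 95.5 at 3 d, then 62.4 and 50.2 at 15 d. WT libraries held 46.5 and 45.5 CPM intact, 38.9 and 34.7 at 6 h, 51.3 and 62.8 at 3 d, then 52.6 and 55.5 at 15 d. The 6 h libraries were the lowest in both genotypes, and GS 3 d replicate 2 was the highest of all 16. Rgs5 fell by 0.48 ± 0.10 at 6 h (adjusted p = 0.00587, edgeR), was 0.43 ± 0.10 above the intact level at 3 d (adjusted p = 0.00386, edgeR), and was 0.13 ± 0.10 above it at 15 d, which did not pass (adjusted p = 0.325, edgeR). The rise at 3 d passed in all 24 alternatives, and the fall at 6 h in all but that without the 3 WT libraries high in cortical markers.

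Abcc9 encodes the sulphonylurea receptor SUR2, the regulatory subunit of the ATP-sensitive potassium channel of mural cells (chr6:142587862-142702766, minus strand, overlapped by the antisense gene 5330439B14Rik). GS libraries held 16.9 and 18.1 CPM intact, 13.8 and 12.9 at 6 h, 15.8 and 18.7 at 3 d, then 15.9 and 14.3 at 15 d. WT libraries held 18.3 and 18.1 CPM intact, 13.4 and 13.2 at 6 h, 17.5 and 16.1 at 3 d, then 14.05 and 13.4 at 15 d. Abcc9 was thus low at 6 h, near the intact values at 3 d and low again at 15 d. The fall was 0.42 ± 0.072 at 6 h (adjusted p = 0.00123, edgeR) and 0.31 ± 0.072 at 15 d (adjusted p = 0.00278, edgeR), and both passed in all 24 alternatives. At 3 d the difference was -0.069 ± 0.071 (adjusted p = 0.454, edgeR).

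Anpep encodes aminopeptidase N (CD13), a surface enzyme of pericytes that macrophages and fibroblasts carry as well (chr7:79821803-79848210, minus strand, overlapped by the predicted gene Gm44974). GS libraries held 2.02 and 1.76 CPM intact, 1.03 and 0.969 at 6 h, 3.12 and 4.91 at 3 d, then 3.80 and 7.26 at 15 d. WT libraries held 1.73 and 2.31 CPM intact, 1.28 and 1.12 at 6 h, 2.49 and 5.14 at 3 d, then 2.24 and 3.82 at 15 d. The 6 h libraries were the 4 lowest and the 3 d libraries were all above the intact ones, with wide gaps between the replicates of the 3 d and 15 d groups. Anpep rose by 1.00 ± 0.27 at 3 d (adjusted p = 0.00677, edgeR) and by 1.06 ± 0.27 at 15 d (2.09-fold, adjusted p = 0.00451, edgeR), and its 6 h value of -0.83 ± 0.29 narrowly missed the threshold (adjusted p = 0.052, edgeR). The 6 h value passed in 11 of 24 alternatives, and of the alternatives only the cortical covariate ended the later calls (0.56 at 3 d, adjusted p = 0.241, and 0.74 at 15 d, adjusted p = 0.0627, edgeR).

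Vtn encodes vitronectin, a secreted adhesive protein of which pericytes are a source in the brain (chr11:78499120-78502325, plus strand). GS libraries held 39.2 and 35.6 CPM intact, 24.4 and 24.6 at 6 h, 36.2 and 35.4 at 3 d, then 42.3 and 40.7 at 15 d. WT libraries held 38.9 and 36.5 CPM intact, 29.1 and 24.96 at 6 h, 34.8 and 39.4 at 3 d, then 38.0 and 41.1 at 15 d. All 4 libraries at 6 h were below every other library. Vtn fell by 0.55 ± 0.062 at 6 h, to 0.685 times the intact level (adjusted p = 6.73e-05, edgeR), and passed in all 24 alternatives. Its difference from intact striatum was -0.043 ± 0.062 at 3 d (adjusted p = 0.599, edgeR) and 0.11 ± 0.062 at 15 d (adjusted p = 0.159, edgeR).

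Acta2 encodes the alpha actin of smooth muscle (chr19:34240336-34255585, minus strand), whose coding sequence is close to that of other actin genes, so that reads may be shared between them. GS libraries held 3.04 and 1.66 CPM intact, 1.67 and 1.24 at 6 h, 4.41 and 4.91 at 3 d, then 3.82 and 5.51 at 15 d. WT libraries held 1.71 and 1.502 CPM intact, 1.16 and 1.21 at 6 h, 4.63 and 5.34 at 3 d, then 2.86 and 4.47 at 15 d. All 4 libraries at 3 d lay above all intact and all 6 h libraries, and GS intact replicate 1 stood above the other intact ones. The same library was the highest intact one in Tagln and Myh11 and had the highest summed level of 10 choroid plexus markers, 799 CPM, against 323 CPM in the other GS intact library and 276 and 366 CPM in WT intact striatum. The part of choroid plexus tissue in these values was not tested. Acta2 rose by 1.31 ± 0.21 at 3 d (2.48-fold, adjusted p = 0.00013, edgeR) and by 1.09 ± 0.21 at 15 d (2.12-fold, adjusted p = 0.000576, edgeR), and both passed in all 24 alternatives. The 6 h value of -0.56 ± 0.22 did not pass (adjusted p = 0.0806, edgeR).

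Myh11 encodes the myosin heavy chain of smooth muscle (chr16:14194527-14292188, minus strand). GS libraries held 3.06 and 2.48 CPM intact, 3.28 and 2.75 at 6 h, 4.01 and 3.85 at 3 d, then 2.96 and 3.53 at 15 d. WT libraries held 2.17 and 2.33 CPM intact, 2.90 and 2.58 at 6 h, 1.92 and 3.85 at 3 d, then 2.38 and 3.34 at 15 d. The groups overlapped, and WT 3 d replicate 1 was the lowest of all libraries beside a replicate near the top. Myh11 passed at no time: the differences were 0.20 ± 0.20 at 6 h (adjusted p = 0.504, edgeR), 0.43 ± 0.19 at 3 d (adjusted p = 0.0809, edgeR) and 0.29 ± 0.20 at 15 d (adjusted p = 0.248, edgeR). The interval of the 3 d difference ran from 0.053 to 0.81, so a sizeable rise could not be told from none after adjustment.

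Tagln encodes transgelin (SM22), an actin-binding protein of smooth muscle (chr9:45929628-45936058, minus strand). It overlaps Pcsk7 and Gm48529 on the opposite strand, so that reads may be shared. GS libraries held 1.93 and 0.992 CPM intact, 2.03 and 1.956 at 6 h, 2.99 and 3.53 at 3 d, then 2.31 and 3.28 at 15 d. WT libraries held 1.53 and 1.20 CPM intact, 1.33 and 1.06 at 6 h, 1.77 and 7.16 at 3 d, then 1.02 and 2.03 at 15 d. The high value of WT 3 d replicate 2 was far above the other replicate of its group. Tagln rose by 1.43 ± 0.36 at 3 d as the mean of both genotypes (2.70-fold, adjusted p = 0.00443, edgeR). Without WT 3 d replicate 2 the rise was 0.76 (adjusted p = 0.0353, edgeR), and with the cortical covariate it was lost (adjusted p = 0.14, edgeR). The values at 6 h (0.13 ± 0.37, adjusted p = 0.847, edgeR) and 15 d (0.54 ± 0.36, adjusted p = 0.243, edgeR) did not pass.

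**Figure D1:**
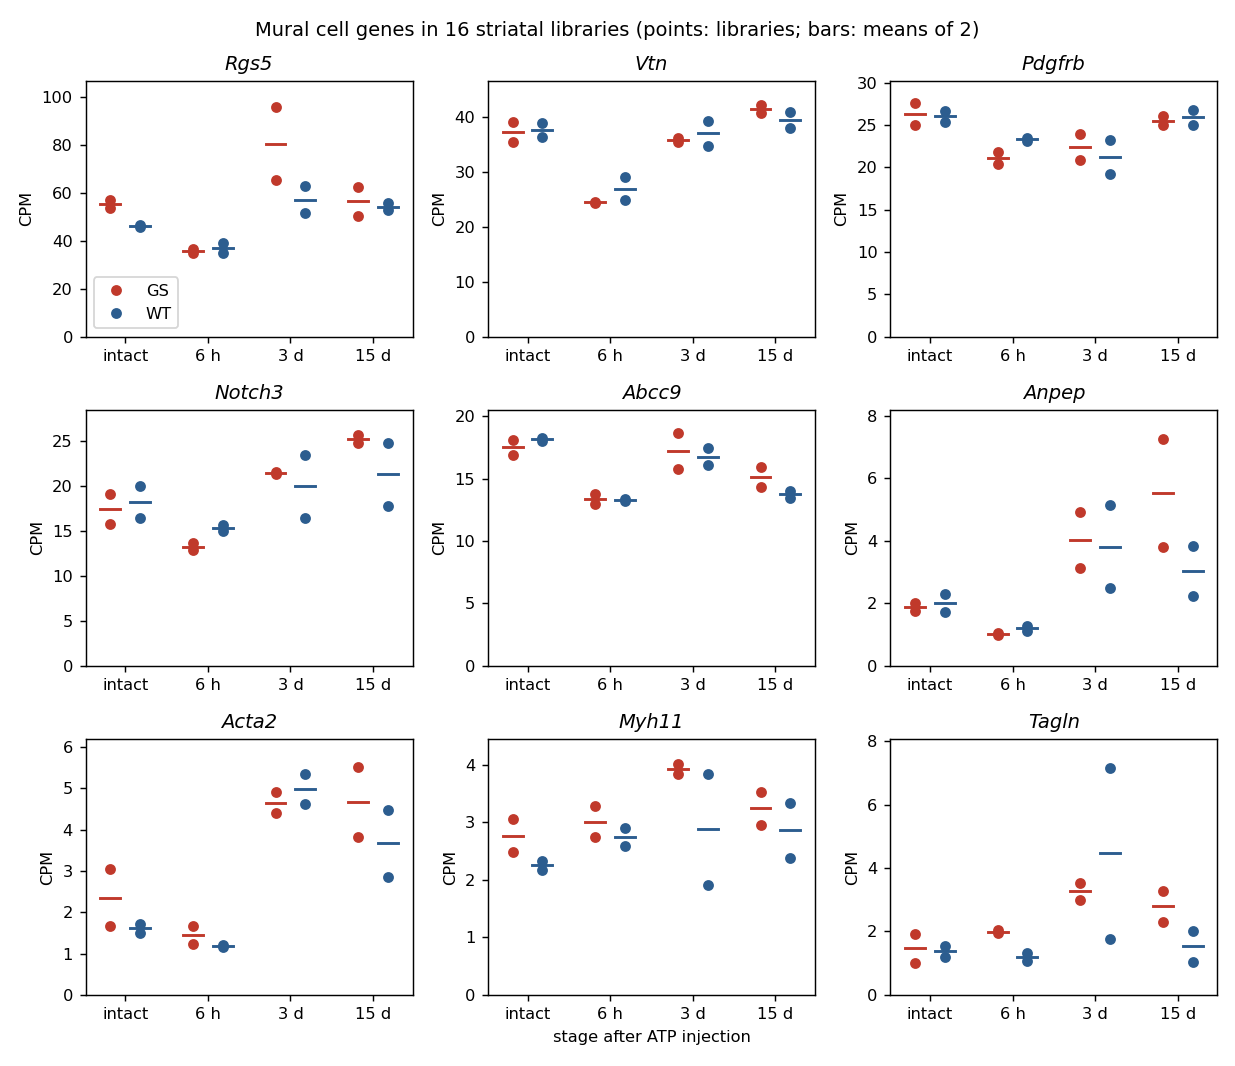
CPM of the 9 genes by stage after ATP injection, with a point for each library and a bar for the mean of the 2 libraries of a group (GS left, WT right). Vtn is lowest at 6 h, Abcc9 is low at 6 h and at 15 d, the group means of Acta2 and Anpep are highest at 3 d and 15 d, and Tagln reaches 7.16 CPM in a single WT library at 3 d.

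Counted over the 9 genes as the mean of both genotypes, 4 fell and 0 rose at 6 h, where 9.76% of all genes tested were lower and 21.3% changed in either direction. At 3 d 4 rose and 1 fell, beside 23.4% of all genes higher, 23.2% lower and 46.6% in either direction. At 15 d 3 rose and 1 fell, beside 23.6% higher, 23.8% lower and 47.3% in either direction. In either direction the counts at 3 d and 15 d were thus near the share over all genes. The median log2 fold change of the 9 was -0.42 at 6 h but 0.43 at 3 d and 0.29 at 15 d, beside medians over all genes tested of -0.0028, -0.018 and -0.023. Libraries of 6 h and intact striatum did not overlap, with all injured ones lower, in 6 of the 9 genes (Pdgfrb, Rgs5, Vtn, Anpep, Abcc9 and Notch3), as in 11.4% of all genes. At 3 d all injured libraries were higher for Anpep and Acta2, as in 19.8% of all genes, and all were lower for Pdgfrb, as in 18.6%. At 15 d all were lower for Abcc9, as in 20.8% of all genes. Without the 3 WT libraries high in cortical markers, 2 of the 9 fell at 6 h (Vtn and Abcc9), and the counts at 3 d and 15 d stayed at 4 up with 1 down and 3 up with 1 down.

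The step between 6 h and 3 d was the broadest change in these genes. At 3 d 7 of the 9 were higher than at 6 h and 0 were lower, beside 24.6% of all genes higher and 49.3% changed in either direction. Acta2 rose by 1.87 ± 0.21 (3.66-fold, adjusted p = 5.87e-06, edgeR) and Anpep by 1.83 ± 0.28 (3.57-fold, adjusted p = 8.52e-05, edgeR). Rgs5 rose by 0.90 ± 0.10 (1.87-fold, adjusted p = 7.69e-06, edgeR) and Vtn by 0.50 ± 0.062 (1.42-fold, adjusted p = 1.35e-05, edgeR). Notch3 (0.54 ± 0.12), Abcc9 (0.35 ± 0.072) and Tagln (1.30 ± 0.35) rose as well, while Pdgfrb (-0.024 ± 0.070) and Myh11 (0.23 ± 0.19) did not pass. The 4 libraries of 3 d lay above the 4 of 6 h without overlap in Rgs5, Vtn, Anpep, Abcc9, Notch3 and Acta2, as in 21.6% of all genes, and these 6 passed in all 24 alternatives. Tagln lost its call without WT 3 d replicate 2 (0.63, adjusted p = 0.0703, edgeR) and with the cortical covariate.

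Fewer genes moved between 3 d and 15 d. Pdgfrb rose by 0.24 ± 0.070 (adjusted p = 0.0381, edgeR) and Abcc9 fell by 0.24 ± 0.072 (adjusted p = 0.0413, edgeR), beside 6.76% of all genes higher and 7.07% lower. Both calls were close to the threshold: Pdgfrb lost its call in 12 and Abcc9 in 13 of 24 alternatives. Tagln (-0.89 ± 0.35, adjusted p = 0.102, edgeR) and Rgs5 (-0.30 ± 0.10, adjusted p = 0.0705, edgeR) did not pass. The libraries of 3 d and of 6 h enter both steps or the comparisons with intact striatum, so these comparisons are not independent of each other.

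Within GS, 4 of the 9 genes fell and 0 rose at 6 h, beside 6.37% of all genes lower and 7.47% higher. They were Rgs5 (-0.63 ± 0.15, adjusted p = 0.0126), Vtn (-0.61 ± 0.088, adjusted p = 0.000742), Abcc9 (-0.39 ± 0.10, adjusted p = 0.0202) and Pdgfrb (-0.32 ± 0.099, adjusted p = 0.0471), all by edgeR. Within WT, Vtn (-0.48 ± 0.088, adjusted p = 0.00974, edgeR) and Abcc9 (-0.45 ± 0.10, adjusted p = 0.0258, edgeR) fell and 0 rose, beside 1.55% of all genes lower and 2.54% higher. Vtn in GS passed in all 24 alternatives, and the other GS calls were lost, leaving 1 call of 4, when either GS 6 h library or GS intact replicate 2 was left out. Pdgfrb in GS, close to the threshold, lost its call in 13 of 24 alternatives. In WT the count dropped to 0 without WT intact replicate 1 or WT 6 h replicate 2, and to 1 without WT intact replicate 2 or WT 6 h replicate 1.

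At 3 d in GS, Anpep (1.083 ± 0.38, adjusted p = 0.0376), Acta2 (0.98 ± 0.29, adjusted p = 0.0153) and Rgs5 (0.54 ± 0.15, adjusted p = 0.0104) rose by edgeR, beside 18.6% of all genes higher and 35.1% changed in either direction. At 3 d in WT, Acta2 rose by 1.63 ± 0.29 (3.10-fold, adjusted p = 0.00118, edgeR) and Tagln by 1.71 ± 0.51 (adjusted p = 0.022, edgeR), beside 14.7% of all genes higher. Pdgfrb fell in WT (-0.29 ± 0.099, adjusted p = 0.0415, edgeR), beside 12.7% of all genes lower, and lost its call in 14 of 24 alternatives. Tagln in WT rested on 1 library: without WT 3 d replicate 2 its value was 0.37 (adjusted p = 0.598, edgeR). Acta2 in WT passed in all 24 alternatives. The GS count was 0 without GS 3 d replicate 2 and 1 without either GS intact library, and the WT count was 1 without either WT intact library.

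At 15 d in GS, Anpep rose by 1.55 ± 0.38 (2.92-fold, adjusted p = 0.0051, edgeR), Acta2 by 0.99 ± 0.29 (adjusted p = 0.0143, edgeR) and Notch3 by 0.53 ± 0.17 (adjusted p = 0.0219, edgeR), beside 19.4% of all genes higher and 37.1% changed in either direction. At 15 d in WT, Acta2 rose by 1.18 ± 0.30 (2.27-fold, adjusted p = 0.0096, edgeR), beside 14.2% of all genes higher. Abcc9 fell in WT by 0.40 ± 0.10 (adjusted p = 0.0101, edgeR), beside 11.2% of all genes lower. The calls of GS at 15 d were all lost without GS 15 d replicate 2, the library with 7.26 CPM of Anpep, and those of WT without WT 15 d replicate 2. Without GS intact replicate 2 the GS count was 1, and without either WT intact library the WT count was 1.

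**Figure D2:**
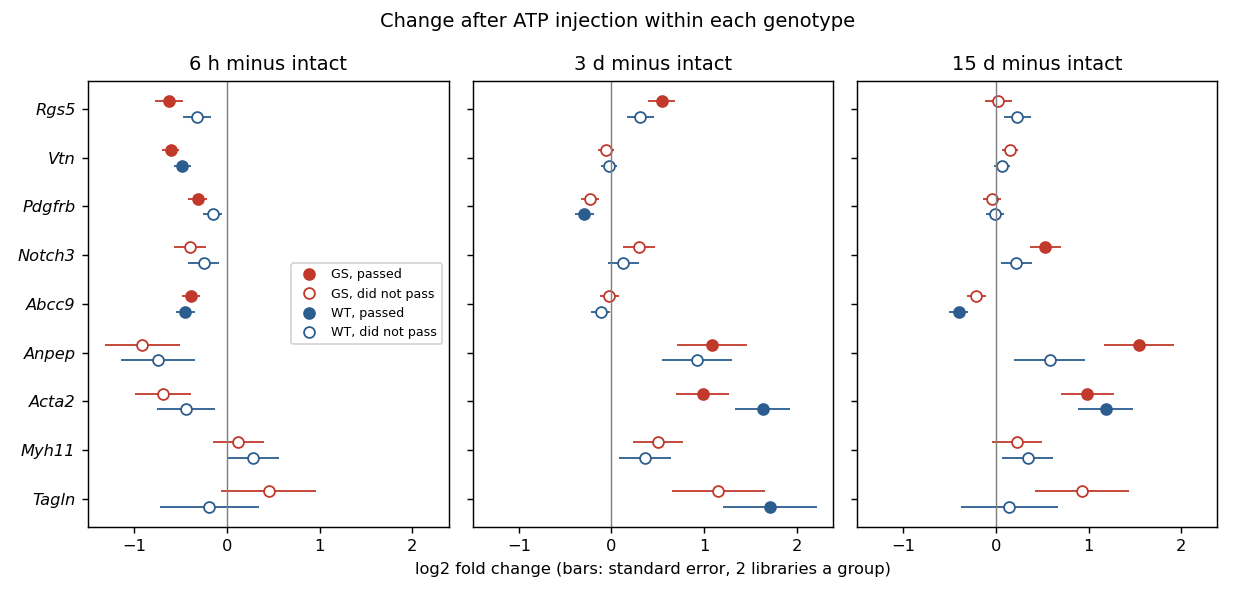
Log2 fold change of the 9 genes against intact striatum at 6 h, 3 d and 15 d in GS (red, upper point of each pair) and WT (blue, lower point), with bars for the standard error from 2 libraries a group and filled points for genes that passed. At 6 h Vtn and Abcc9 are left of 0 in both genotypes, and Acta2 is filled and right of 0 in both genotypes at 3 d and 15 d.

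No member passed between the genotypes. In GS against WT, 0 of the 9 passed at intact, 6 h, 3 d or 15 d or as the mean of the 4 stages, by edgeR, DESeq2 or limma-voom. Over all genes tested, 0.0159% passed in intact striatum, 0.00532% at 6 h, 0.0106% at 3 d, 0.00532% at 15 d and 0.0106% as the mean. At an unadjusted p under 0.05 by edgeR there was 1 member at 3 d (Rgs5), 1 at 15 d (Anpep), 1 in the mean of 4 stages (Rgs5) and 0 in intact striatum and at 6 h.

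Rgs5 was the member with the smallest p between genotypes. Its means were 55.2 ± 2.51 CPM in GS and 46.0 ± 0.695 CPM in WT intact striatum, and 80.3 ± 21.5 CPM in GS and 57.0 ± 8.13 CPM in WT at 3 d (SD, n = 2 each). Both GS libraries exceeded both WT libraries at these stages, as in 22.4% of all genes in intact striatum and 15.4% at 3 d, whereas at 6 h and 15 d the genotypes overlapped. The difference at 3 d was 0.49 ± 0.15 (adjusted p = 0.55, edgeR) and that over 4 stages 0.19 ± 0.074 (adjusted p = 0.442, edgeR). Without GS 3 d replicate 1 the 3 d difference was 0.74 and passed (adjusted p = 0.0356, edgeR), while without GS 3 d replicate 2 it was 0.19, so the call depends on the spread between these 2 libraries (65.1 and 95.5 CPM).

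Anpep averaged 5.53 ± 2.45 CPM in GS and 3.03 ± 1.11 CPM in WT at 15 d (SD, n = 2 each), and the genotypes overlapped. Its difference was 0.87 ± 0.37 (adjusted p = 0.969, edgeR). For the precisely measured Pdgfrb, Vtn and Abcc9, the approximate 95% intervals of the difference between genotypes lay within -0.342 and 0.339 at all 4 stages. These intervals are somewhat too narrow, so they set no firm bound. For all 9 genes they take no account of the limited degrees of freedom. For Tagln the intervals were wider, from -0.93 to 1.12 in intact striatum, -0.28 to 1.75 at 6 h, -1.39 to 0.48 at 3 d and -0.11 to 1.88 at 15 d. In the test of the difference in response to injury between genotypes, 0 of the 9 genes passed at 6 h, 3 d or 15 d by edgeR, DESeq2 or limma-voom, with 0 members at an unadjusted p under 0.05 by edgeR, where 0.0106%, 0% and 0% of all genes passed. The smallest unadjusted p of these was 0.0912 for Anpep at 15 d, with a GS response larger by 0.97 ± 0.53.

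**Figure D3:**
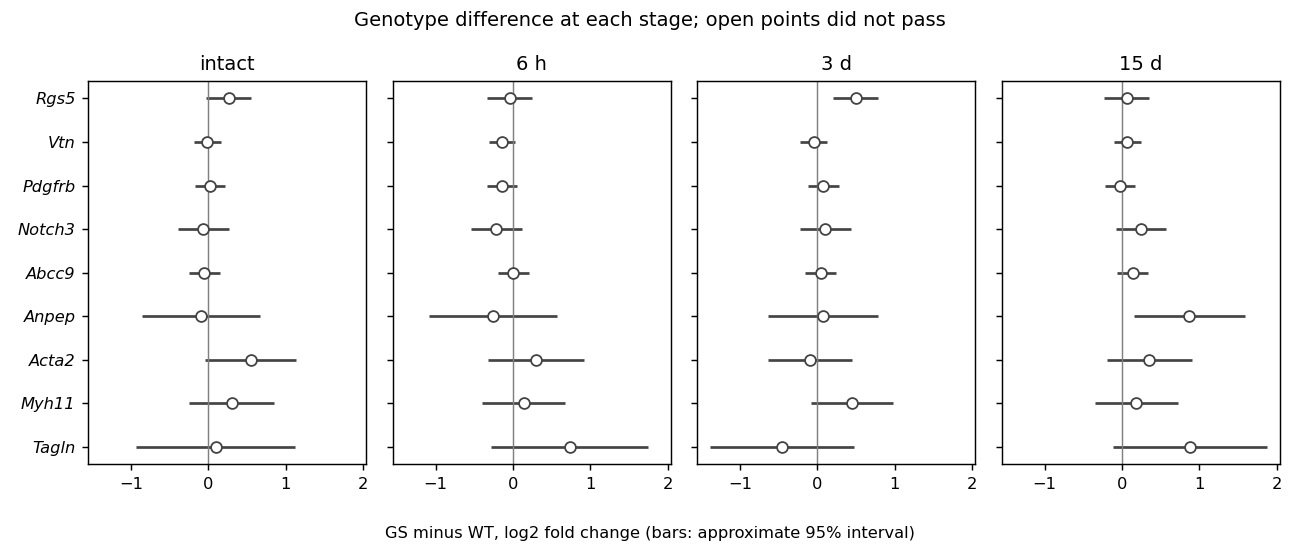
GS minus WT log2 fold change of the 9 genes at each stage, with bars for the approximate 95% interval. All points are open, since none passed after adjustment; Rgs5 at 3 d and Anpep at 15 d have intervals that leave out 0.

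The 9 genes did not vary as a block. Over the 16 libraries, log2 CPM of Anpep went with that of Notch3 (Pearson r = 0.90) and Acta2 (r = 0.89), and Vtn with Notch3 (r = 0.84), while Pdgfrb and Tagln (r = -0.14) and Abcc9 and Myh11 (r = -0.19) did not go together. After the group means were taken away, which leaves only differences between the replicates of a group, Myh11 and Tagln had r = 0.94, Notch3 and Tagln 0.90 and Pdgfrb and Tagln 0.86. Abcc9 had negative values with 7 of the other genes, down to -0.50 for Myh11 and -0.49 for Notch3, and a positive value with Rgs5 (0.59). Rgs5 and Acta2 had r = 0.76 over the libraries but -0.09 within groups. These values are descriptions over 16 libraries that share stage, genotype and depth, and each within-group value rests on 8 pairs of replicates. For Tagln, Myh11, Notch3 and Pdgfrb the log2 gap between replicates was widest in the same pair, WT at 3 d. There Tagln had 1.77 and 7.16 CPM and Myh11 1.92 and 3.85 CPM. The values without that pair were not computed, so general co-variation of these genes is not shown.

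**Figure D4:**
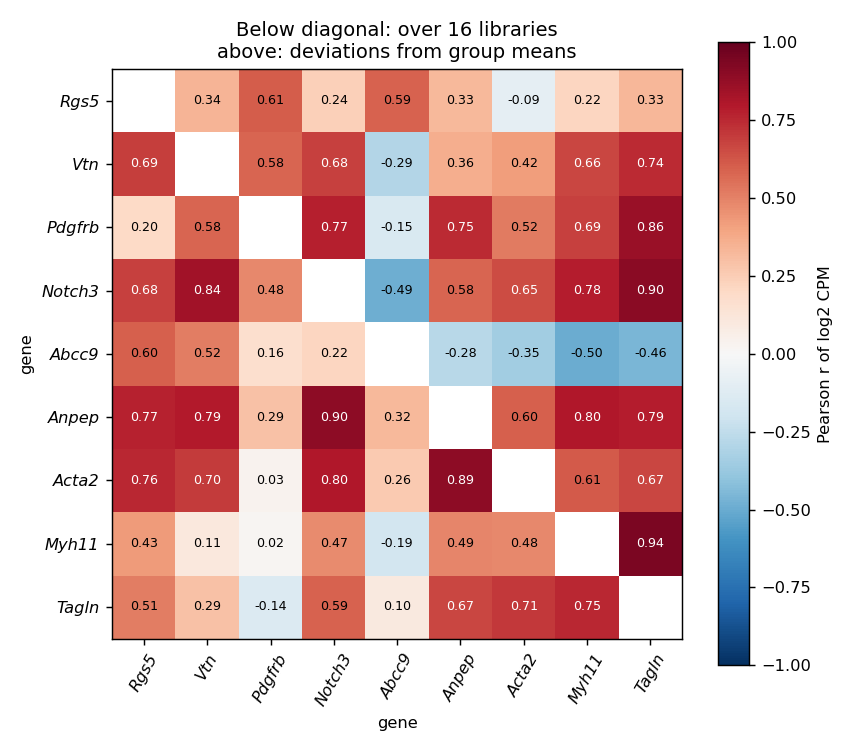
Pearson r of log2 CPM between the 9 genes, over 16 libraries below the diagonal and for deviations from the group means above it. Within groups Myh11, Tagln and Notch3 go together (up to 0.94) and Abcc9 has negative values with them (down to -0.50).

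The genes whose log2 CPM was most like that of each member over the 16 libraries, out of 15341 genes averaging at least 1 CPM, were found by Pearson r. For Acta2 they were Serpinh1 (r = 0.97), the chaperone gene of collagen folding, Layn (0.96) and Hk3 (0.96), a hexokinase gene. Serpinh1 averaged 11.8, 5.50, 27.4 and 27.5 CPM in GS at intact, 6 h, 3 d and 15 d, and 7.76, 5.63, 27.3 and 21.3 CPM in WT. For Anpep they were Flii, Erp29 (0.97 each) and Rgs10 (0.96), for Notch3 Inava (0.95), Snx30 (0.94) and Erp29 (0.94), and for Rgs5 She (0.96), Specc1 (0.95) and Ugt8a (0.95). For Vtn they were AW047730 (0.97), Mtss2 (0.95) and Mgat1 (0.94), and for Abcc9 Ankrd34c (0.93), Spred3 (0.91) and Fat3 (0.91). Pdgfrb (Pld2, 0.89), Tagln (Lst1, 0.86) and Myh11 (Ykt6, 0.85) had weaker best matches. The 9 genes themselves were left out of this search, so it does not show how alike they are to each other.

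Other genes of the same cells gave a mixed picture. As the mean of both genotypes, 21.3% of all genes passed at 6 h, 46.6% at 3 d and 47.3% at 15 d. The list counts below stand beside these shares, and those of other smooth muscle markers were near them at 3 d and 15 d. Of 20 other pericyte markers, all measured, 6 fell and 0 rose at 6 h as the mean of both genotypes (median -0.36), including Higd1b (-0.64 ± 0.17), Foxf2 (-0.63 ± 0.18), a transcription factor gene of brain mural cells, and Kcnj8 (-0.62 ± 0.18), which encodes the pore of the channel that holds the Abcc9 product. The count was 0 without the 3 WT libraries high in cortical markers, and it was 1 without WT 6 h replicate 2, 2 without GS 6 h replicate 1 and 3 without GS intact replicate 2. At 3 d 5 of them were lower, including Heyl (-1.15 ± 0.16), Tbx2 (-0.97 ± 0.19) and Mcam (-0.60 ± 0.088), and 1 was higher, the sphingosine receptor gene S1pr3 (1.33 ± 0.19), which is also known in astrocytes. Without WT intact replicate 1, 3 were lower. At 15 d S1pr3 (2.74 ± 0.19) and P2ry14 (0.52 ± 0.12) were higher and Heyl (-0.53 ± 0.15) and Tbx2 (-0.53 ± 0.19) were lower, and the median was -0.11. The count of lower genes at 15 d was 0 without GS intact replicate 1 and 1 without WT intact replicate 2, WT 15 d replicate 2 or GS 15 d replicate 1. The median of these markers at 3 d was -0.052, beside 0.43 for the 9 genes.

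Of 22 other smooth muscle markers, 18 were measured. At 6 h 2 rose, Kcnmb1 (1.09 ± 0.30), the beta subunit gene of the large calcium-activated potassium channel, and Mustn1 (1.00 ± 0.28), and Myl9, a myosin light chain gene, fell (-0.48 ± 0.15). None of these 3 passed without the 3 WT libraries high in cortical markers, and no gene of the list passed without WT intact replicate 1 or GS 6 h replicate 1. At 3 d 6 rose and 3 fell (median 0.24): Kcnmb1 (1.99 ± 0.29), Mustn1 (1.18 ± 0.28) and Cald1 (0.70 ± 0.081), the caldesmon gene, were highest. At 15 d 8 rose and 2 fell (median 0.39), with Kcnmb1 (2.64 ± 0.29), Sncg (0.92 ± 0.22) and Mustn1 (0.86 ± 0.29) highest and the tropomyosin gene Tpm1 (-0.27 ± 0.0505) and Synpo2 (-0.30 ± 0.082) lower. Several genes of this list, such as Cald1, Vcl and Tpm1, are made by many cell types.

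In the PDGF pathway, 7 genes were measured and at 6 h only Pdgfrb passed, and not without those 3 WT libraries. At 15 d 4 rose, including the ligand genes Pdgfc (0.70 ± 0.10) and Pdgfb (0.36 ± 0.13) and the receptor-like gene Pdgfrl (1.39 ± 0.22), while Pdgfrb did not pass. The count was 2 without the 3 WT libraries, and also 2 without WT intact replicate 1, GS intact replicate 2 or replicate 2 of either 15 d group. In a list of 5 angiopoietin pathway and related genes, the receptor genes Tie1 (-1.40 ± 0.20) and Tek (-1.26 ± 0.20) fell at 6 h while the ligand gene Angpt2 (1.30 ± 0.32) rose. The angiopoietin-like gene Angptl4, related by name and not counted here as a ligand of these receptors, rose as well (1.00 ± 0.15). Angpt1, which encodes the ligand that mural cells supply to Tek, had a value of 0.25 ± 0.29 at 6 h and rose at 3 d (0.73 ± 0.28) and 15 d (1.78 ± 0.28).

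Of 16 Notch pathway genes, 1 rose (Rbpj, 0.41 ± 0.081) and 1 fell (Jag2, -0.17 ± 0.054) at 6 h, neither of which passed without the 3 WT libraries high in cortical markers, and at 3 d 6 rose and 5 fell. The vascular Notch target Heyl fell at 3 d, as given above, beside the ligand genes Jag1 (-0.87 ± 0.10) and Jag2 (-0.72 ± 0.055), while Hes5, a target known in neural progenitors and astrocytes, rose (0.97 ± 0.22). At 15 d 7 rose and 4 fell, with Hes5 (1.10 ± 0.22), Hey2 (0.93 ± 0.085) and Notch2 (0.75 ± 0.072) highest beside the rise of Notch3. Of 6 measured genes of serum response factor and its partners 2 rose at 6 h, 2 rose and 1 fell at 3 d, and 2 rose and 3 fell at 15 d. Among them Klf4, a repressor of the contractile programme in cultured smooth muscle, rose at 3 d (0.90 ± 0.19) and 15 d (1.02 ± 0.19), and Srf itself rose at 15 d (0.31 ± 0.079). Of the 4 genes of ATP-sensitive potassium channels, the neuronal pair Kcnj11 (-0.66 ± 0.059) and Abcc8 (-0.46 ± 0.096) fell at 3 d, when Abcc9 and Kcnj8 (-0.055 ± 0.18) did not pass. At 15 d 3 of the 4 fell, Abcc9 together with Kcnj11 and Abcc8, while Kcnj8 did not pass.

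Markers of neighbouring cells were counted over the same stages. Endothelial counts in either direction were near or below the shares of all genes that passed, 46.6% at 3 d and 47.3% at 15 d. Of 18 endothelial markers, 9 fell at 6 h (median -0.34), led by Tie1, Tek and the transcription factor gene Sox17 (-1.10 ± 0.21), and without the 3 WT libraries 5 fell. Their summed level at 6 h was 264 to 283 CPM in GS and 258 to 259 CPM in WT, against 325 to 343 CPM in GS and 265 to 304 CPM in WT intact striatum. Against intact striatum 6 endothelial markers rose and 2 fell at 3 d (median 0.24), including Cdh5 (0.82 ± 0.17) and Pecam1 (0.80 ± 0.13), the genes of endothelial junction proteins, and 3 rose and 3 fell at 15 d, or 7 and 1 without the 3 WT libraries. With single libraries left out, 5 to 8 rose and 0 to 3 fell at 3 d, the 0 without GS intact replicate 2, and 2 to 5 rose and 2 to 4 fell at 15 d. Between 6 h and 3 d, 13 of the 18 were higher at 3 d and 1 was lower, beside 24.6% of all genes higher and 24.8% lower. Their summed level at 3 d was 339 to 418 CPM in GS and 325 to 366 CPM in WT. All 4 measured erythrocyte genes rose at 6 h, with summed levels of 27.7 to 50.2 CPM in GS and 48.6 to 58.9 CPM in WT, against 4.09 to 5.82 CPM in GS and 3.34 to 4.19 CPM in WT intact striatum. The part of endothelium and blood in the changes of the mural genes was not tested.

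Of 17 measured fibroblast markers, 10 rose and 0 fell at 3 d (median 0.80), led by Lox (2.72 ± 0.30), Col3a1 (2.05 ± 0.27) and Fn1 (1.92 ± 0.18), and 13 rose and 0 fell at 15 d. Their summed level was 358 to 377 CPM in GS and 276 to 340 CPM in WT at 3 d, and 397 to 464 CPM in GS and 330 to 399 CPM in WT at 15 d, against 169 to 238 CPM in GS and 229 to 274 CPM in WT intact striatum. All 11 measured macrophage markers rose at 3 d (median 2.61) and 10 rose at 15 d. The macrophage sum at 3 d was 690 to 921 CPM in GS and 454 to 683 CPM in WT, against 170 to 173 CPM in GS and 161 to 165 CPM in WT intact striatum. The library with the higher macrophage sum of its pair was also the higher in 6 of the 9 genes in GS at 3 d (not Vtn, Notch3 and Myh11) and in 8 in WT at 3 d (not Abcc9). At 15 d it was the higher in 6 genes in GS (not Rgs5, Vtn and Abcc9) and in 8 in WT (not Abcc9). In intact striatum, where the macrophage sums of a pair were close, it was the higher in 2 genes in GS and 7 in WT. At 6 h it was the higher in 5 genes in GS and 7 in WT. The share over all genes was not computed, so these counts do not tie the 9 genes to macrophages. The table lists no gene with a count below 1 in any library, so listed markers absent from it could not be assessed. Fibroblasts and macrophages can express Anpep, and myofibroblasts Acta2 and Tagln, and their part in the later rises was not tested.

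**Figure D5:**
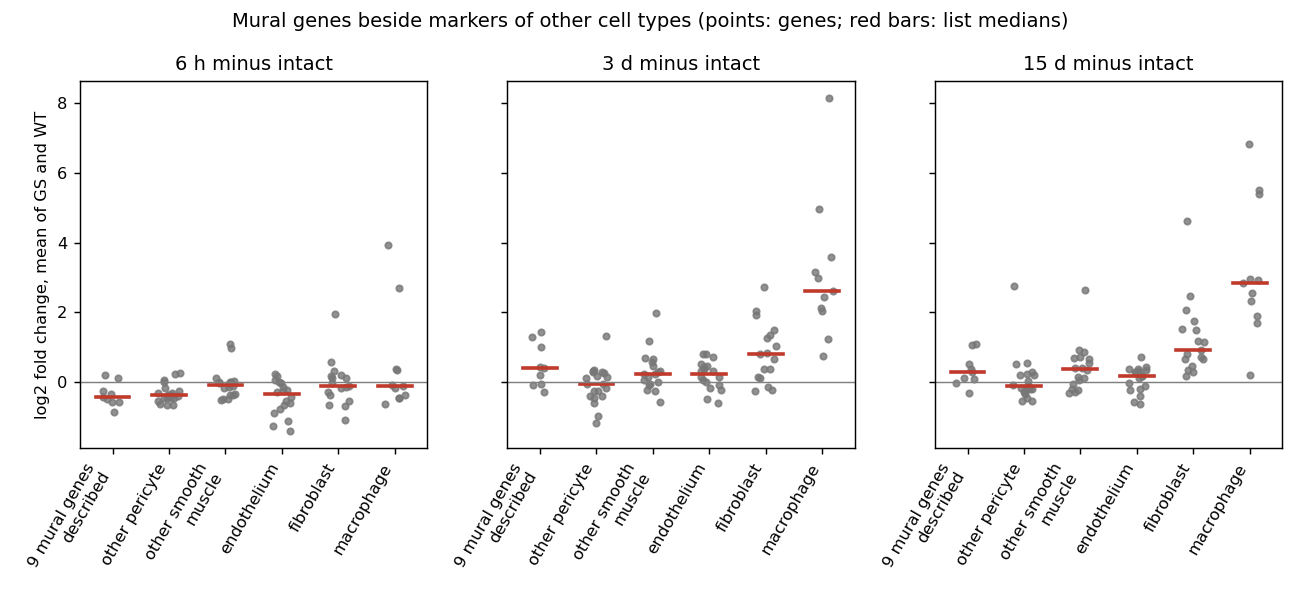
Log2 fold change against intact striatum, mean of GS and WT, of the 9 mural genes and of other marker lists at 6 h, 3 d and 15 d; each point is a gene and each red bar the median of a list. The 9 genes, other pericyte and endothelial markers lie mostly below 0 at 6 h, and fibroblast and macrophage medians stand above 0 at 3 d (0.80 and 2.61) while that of other pericyte markers does not.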

How the data were processed

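Per the labels' protocols, striatal RNA was purified by RNeasy columns and prepared for sequencing by TruSeq RNA. The authors deposited raw read counts per gene, per the file headers, which pair symbols with NCBI Gene IDs. FastQC 0.11.7 and the mm10 build are named, per the submitters' processing notes. The aligner, counting tool and strand setting were not given in the sources used. Columns are named by genotype (GS, NT), stage and replicate number; NT columns were read as WT by elimination and stage 0 as intact. The table lists no gene with a count below 1 in any of the 16 libraries, so genes silent in a library are not analysed here.

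Counts were tested with edgeR 4.0.16 in R 4.3.3: filterByExpr by group, which kept 18813 of 19457 genes, TMM factors (0.947 to 1.03), and a quasi-likelihood fit with 1 coefficient per group over all 16 libraries (8 residual degrees of freedom). Each contrast was tested by glmQLFTest, with p-values adjusted by Benjamini-Hochberg over 18813 genes. A standard error is the absolute log2 fold change over the square root of its F statistic. Intervals are approximate and somewhat too narrow, since they take no account of the limited degrees of freedom. Log2 CPM used a prior count of 2. Exon lengths came from GENCODE vM21, positions and promoters from RefSeq GRCm38.p6. The procedure was tested on simulated data. Each library held at least 49220578 counts, so replicate spread limits precision more than counting.

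The members and all lists were chosen with earlier results of these data known. All 9 members are described in every comparison, and of each other list up to 3 genes with the largest changes among those that passed are named, with further genes of the pathway lists. Des and Heyl, Kcnj8, Tek and Tie1 each stand in more than 1 list. Lists of choroid plexus, cortical and striatal markers were used to describe the libraries. The alternatives tried were DESeq2 1.42.0, limma-voom (limma 3.58.1), RLE factors, a fit with all genes kept, a fit of only the groups compared, a block for replicate number, a covariate for cortical markers (their mean log2 CPM), the fit without the 3 WT libraries high in cortical markers, and each library left out.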

Additional observations from a re-analysis of the deposited data

How the results depend on the processing

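Counts below are members that passed out of 9. No call changed sign under any alternative. Leaving out the 3 WT libraries high in cortical markers gave 0 in WT at 6 h (2 with all libraries), 1 in WT at 3 d (3), 1 in WT at 15 d (2), 2 in the mean of genotypes at 6 h (4) and 0 between 15 d and 3 d (2). With the cortical covariate the counts were 1 in WT at 3 d, 1 in GS at 3 d (3), 1 in GS at 15 d (3), 2 at 3 d (5) and 2 at 15 d (4) in the mean of genotypes, and 1 between 15 d and 3 d. With only the groups compared they were 1 in WT at 3 d and 0 between 15 d and 3 d, and DESeq2 gave 4 there. Each of these fits has fewer samples, a further term or another tool, and the cause of each shift was not tested. The cortical level did not overlap between intact and 3 d libraries, so its fit cannot tell dissection from injury there. Single libraries left out gave 0 to 2 in WT at 6 h, 1 to 4 in WT at 3 d, 0 to 2 in WT at 15 d, 1 to 4 in GS at 6 h, 0 to 4 in GS at 3 d, 0 to 4 in GS at 15 d, 0 to 2 between 15 d and 3 d, and 0 to 1 for GS against WT at 3 d. In the means of genotypes they gave 3 to 6 at 6 h, 5 to 7 at 3 d, 3 to 4 at 15 d and 6 to 8 for 3 d against 6 h. A fit that leaves 1 library in a group assumes that it varies like the other groups. RLE factors and no filter moved no count by over 1.5 times, and RLE shifted the median of all genes by under 0.01.

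Over all genes, the number called in WT at 6 h was 769 and ran between 64 and 1075 without single libraries and between 4 and 1479 under the other alternatives. The lowest counts over all alternatives were 2047 in WT at 3 d (5153 in the fit described), 2270 in WT at 15 d (4779), 868 in GS at 6 h (2605), 3934 in GS at 3 d (6598), 4555 in GS at 15 d (6972), 1614 in the mean at 6 h (4002), 5509 at 3 d (8769) and 1041 between 15 d and 3 d (2601). Between genotypes the counts were 0 to 3, and up to 153 under an alternative. Deviations of same-numbered libraries correlated between -0.174 and 0.337 over 28 pairs of groups, so the numbers were not taken as pairing. The fit with the replicate block gave 5 members at 6 h, 5 at 3 d and 4 at 15 d in the means of genotypes and 4 in WT at 3 d, and it added Anpep in WT at 3 d and Anpep at 6 h to the calls. Depth bears most on Anpep, Tagln and Acta2, whose lowest libraries held 54, 58 and 67 counts.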
